A study of Homo sapiens with 4 samples.

Results

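The genes described here encode enzymes and regulators of cholesterol and fatty acid synthesis. They were chosen by gene symbol, as a list of 28 names, and 28 of the 17064 gene rows of the table carried one of them, MSMO1 under its current name. By the sample labels the cells were KYSE-150, a line derived from a human squamous carcinoma of the esophagus. There were 4 libraries, 1 per group. The groups were input RNA of cells with a stable hairpin against NSUN6, input RNA of control cells with normal NSUN6, and the polyribosome RNA of each. NSUN6 methylates cytosines in RNA. All cells received cycloheximide, which halts elongating ribosomes. Part of each cleared lysate was kept as input RNA, and polyribosomes were collected from the remainder by ultracentrifugation over sucrose. Values are FPKM, fragments scaled to transcript length and to mapped fragments, so levels of different genes can be compared per length. The sequencing depth is unknown. With 1 library per group no difference could be tested or checked against replicates.

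The deposited table closes with another row of names that goes against the labels. For the knockdown columns this row reads K30 and shMettl1, with the order of input and polyribosomes swapped. Because the header fits the sample labels, it was followed. Whether the knockdown columns come from another line or hairpin was not tested. The pair is called knockdown-labelled. Values with the 2 fractions exchanged are given for the members, and not for the other named genes. NSUN6 was at 3.83 FPKM in knockdown-labelled input, against 8.85 FPKM in control input. On polyribosomes it was at 0.38 FPKM in knockdown-labelled cells, against 10.1 FPKM in control cells. METTL1 was at 5.98 FPKM in knockdown-labelled input, against 13.0 FPKM in control input. The squamous marker KRT5 was at 0.45 FPKM in knockdown-labelled input, against 906 FPKM in control input, while the simple epithelial keratin KRT19 was at 1488 FPKM in knockdown-labelled and 0.07 FPKM in control input. The sum over 5 simple epithelial markers was 5419 FPKM in knockdown-labelled and 3207 FPKM in control input, and KRT8 among them was at 1941 FPKM in knockdown-labelled and 1503 FPKM in control input. The sum over 8 squamous markers was 95.6 FPKM in knockdown-labelled and 1235 FPKM in control input, most of the latter KRT5. Of the 8, all but KRT6A were lower in knockdown-labelled input. KRT6A was at 34.25 FPKM in knockdown-labelled and 29.51 FPKM in control input. TP63 was at 23.66 FPKM in knockdown-labelled and 30.25 FPKM in control input. All 4 libraries held under 3 FPKM in sum over 6 fibroblast markers and under 1 FPKM over 4 endothelial markers. Sums over 6 immune markers were 8.55 FPKM in knockdown-labelled and 74.1 FPKM in control input, most of it CD68 at 5.90 FPKM in knockdown-labelled and 71.2 FPKM in control input. The part of these differences in the results below was not tested.

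Cholesterol is built from acetyl-CoA, first through mevalonate to farnesyl diphosphate, then through squalene to lanosterol, and finally by trimming of lanosterol. Fatty acids are built from the same acetyl-CoA by carboxylation, chain synthesis, desaturation and elongation. The transcription factors SREBP-1 and SREBP-2, encoded by SREBF1 and SREBF2, switch on most of these genes. INSIG1 holds their precursors in the endoplasmic reticulum when sterols are plentiful.

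Sequences of 4 members are shown because their mRNAs stood at the 2 ends of polyribosome loading in knockdown-labelled cells. The last 150 coding bases before the stop codon are given, from GENCODE release 29, with G and C in capitals. Under the header's order of fractions, IDI1 and CYP51A1 were the lowest in log2 polyribosome over input RNA, at -2.37 and -2.35. TM7SF2 and PMVK were the highest, at 0.97 and 0.76.
IDI1: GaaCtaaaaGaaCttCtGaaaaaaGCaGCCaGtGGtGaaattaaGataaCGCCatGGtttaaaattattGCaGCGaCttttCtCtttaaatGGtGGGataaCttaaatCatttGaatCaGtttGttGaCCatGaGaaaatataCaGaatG
CYP51A1: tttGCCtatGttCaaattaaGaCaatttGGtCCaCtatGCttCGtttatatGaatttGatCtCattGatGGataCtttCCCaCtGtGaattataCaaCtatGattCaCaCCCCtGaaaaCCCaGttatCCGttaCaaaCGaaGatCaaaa
TM7SF2: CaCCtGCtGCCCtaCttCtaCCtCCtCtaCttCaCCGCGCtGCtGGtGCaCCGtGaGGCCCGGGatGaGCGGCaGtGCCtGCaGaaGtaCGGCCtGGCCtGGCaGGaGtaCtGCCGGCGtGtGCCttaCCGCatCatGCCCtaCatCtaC
PMVK: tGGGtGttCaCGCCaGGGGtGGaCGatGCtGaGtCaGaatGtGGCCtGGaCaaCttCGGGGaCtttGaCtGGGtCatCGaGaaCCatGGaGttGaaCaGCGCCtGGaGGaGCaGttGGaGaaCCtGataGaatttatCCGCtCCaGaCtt
G or C made up 49 of these 150 bases in IDI1, 52 in CYP51A1, 95 in TM7SF2 and 81 in PMVK. Over the whole transcripts GC content was 39.8% in IDI1, 41.5% in CYP51A1, 62.0% in TM7SF2 and 59.5% in PMVK. The first 150 coding bases did not separate the 4 in this way. They were at 71.3% GC in IDI1, 66.7% in CYP51A1, 76.7% in TM7SF2 and 63.3% in PMVK.

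Promoter windows of 2 members are shown because SREBF2 encodes the main activator of the sterol genes and DHCR7 was the member furthest apart between the cells. They span an annotated transcription start and lie mostly upstream of it, from RefSeq on GRCh38.p14. Capitals mark TCACNCCAC, a form of the sterol regulatory element, and CCAAT, the box bound by NF-Y, on either strand. The SREBF2 window is chr22:41832855-41833154 on the plus strand, and the DHCR7 window shown is chr11:71448344-71448643 on the minus strand. A second DHCR7 window, at chr11:71448994-71449293, held neither motif.
SREBF2: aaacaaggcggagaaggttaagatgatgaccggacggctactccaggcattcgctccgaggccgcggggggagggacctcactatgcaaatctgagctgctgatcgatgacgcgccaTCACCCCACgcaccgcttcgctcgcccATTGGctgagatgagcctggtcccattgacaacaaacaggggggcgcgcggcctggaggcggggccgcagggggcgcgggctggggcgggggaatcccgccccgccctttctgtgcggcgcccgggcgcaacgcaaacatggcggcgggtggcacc
DHCR7: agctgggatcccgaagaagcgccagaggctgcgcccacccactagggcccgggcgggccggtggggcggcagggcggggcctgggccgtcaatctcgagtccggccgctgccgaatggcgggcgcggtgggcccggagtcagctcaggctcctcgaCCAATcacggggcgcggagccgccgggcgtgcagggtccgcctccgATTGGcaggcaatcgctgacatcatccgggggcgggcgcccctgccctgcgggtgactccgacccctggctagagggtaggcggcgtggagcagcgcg
Windows were found for 24 of the 28 members, 32 in all. The sterol element was in 1 of the 32, that of SREBF2, and in 1.13% of all 35116 windows. CCAAT was in 22 of the 32 and in 34.6% of all windows. The 2 motifs did not overlap in the windows shown.

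Summed over the 28 members, RNA stood at 1243 FPKM in knockdown-labelled input, against 754 FPKM in control input. On polyribosomes the sum was 1218 FPKM in knockdown-labelled cells, against 848 FPKM in control cells. DHCR7 and ACAT2 accounted for part of this. Without them the sums in input were 1060 FPKM in knockdown-labelled and 754 FPKM in control cells. On polyribosomes they were 996 FPKM in knockdown-labelled and 848 FPKM in control cells. The members made up 0.231% of all FPKM in knockdown-labelled input and 0.130% in control input. SCD was the most abundant member in knockdown-labelled input, at 204 FPKM, and FDPS in control input, at 111 FPKM. STARD4 was the lowest member in knockdown-labelled input, at 0.66 FPKM, and ACAT2 the lowest in control input, at 0.03 FPKM. In bulk RNA, fewer cells of a type and less RNA per cell cannot be told apart. Changes below are differences of log2(FPKM + 1), which understate the change of low genes, and counts cover genes that averaged 5 FPKM or more across the libraries. HMGCS1, ELOVL6 and STARD4 were under that mean, so 25 members are counted.

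**Figure D1:**
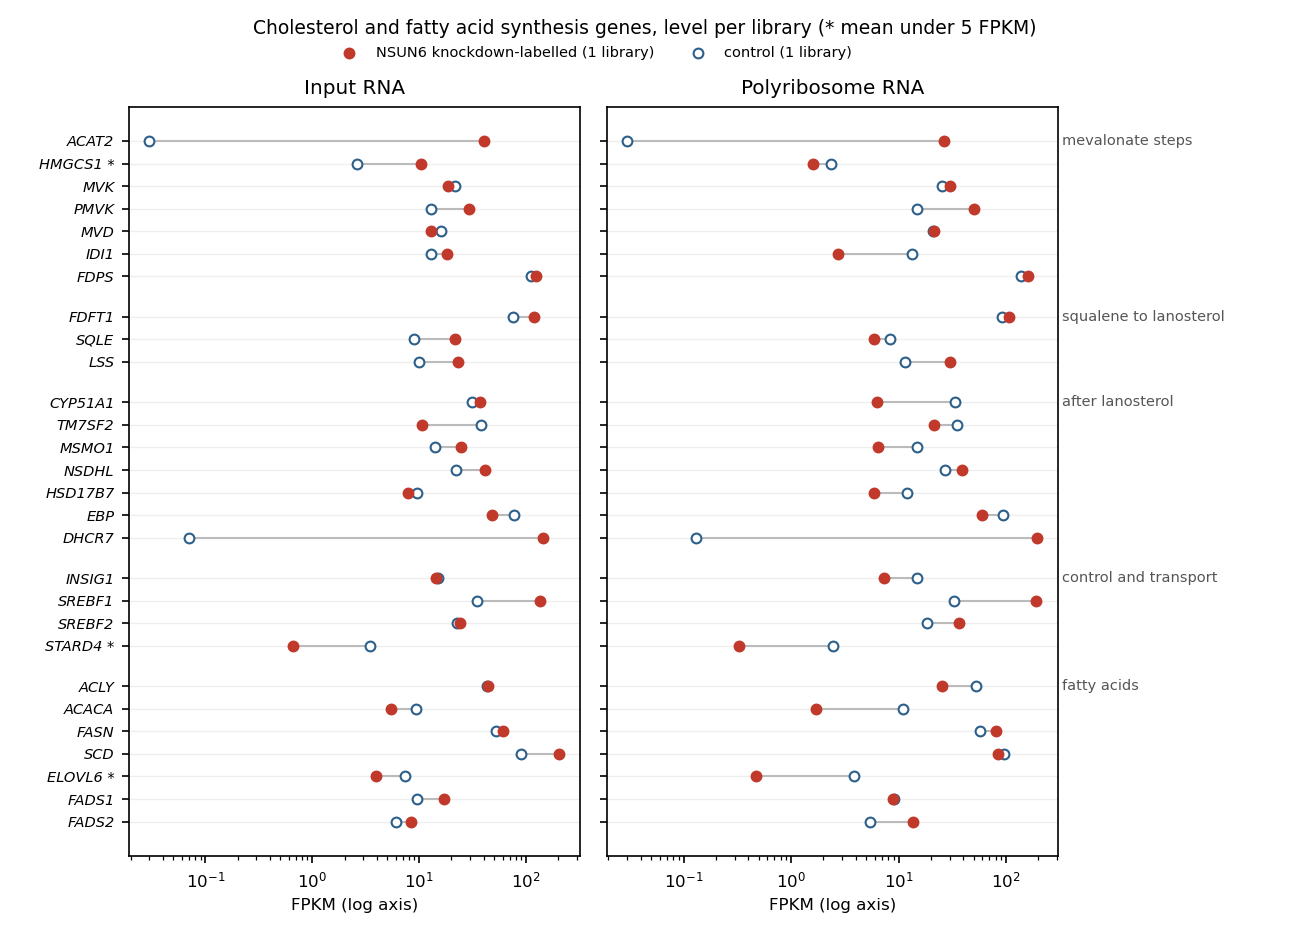
Level of each of the 28 members in FPKM (log axis) in input RNA (left panel) and polyribosome RNA (right panel), filled points for the knockdown-labelled library and open points for the control library, ordered by step. DHCR7 and ACAT2 stand at 142 and 40.7 FPKM in knockdown-labelled input and at 0.07 and 0.03 FPKM in control input, while most other pairs lie much closer.

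The mevalonate steps held one member that was near 0 in control cells. ACAT2, the cytosolic thiolase that joins acetyl-CoA units, was at 40.7 FPKM in knockdown-labelled and 0.03 FPKM in control input. Its polyribosome RNA was at 26.7 FPKM in knockdown-labelled and 0.03 FPKM in control cells. Both control values are close to 0.01 FPKM, the lowest value above 0 that the table lists, so the log2 differences of 5.34 and 4.75 depend on the added constant. ACAT2 overlaps TCP1 and SOD2 on the opposite strand, and the strand setting of the counting is not given in the sources used here.
HMGCS1, the cytosolic HMG-CoA synthase, was at 10.3 FPKM in knockdown-labelled and 2.64 FPKM in control input. Its polyribosome RNA was at 1.60 FPKM in knockdown-labelled and 2.34 FPKM in control cells. The difference was thus 1.63 in input and -0.36 on polyribosomes. PMVK, the phosphomevalonate kinase, was higher in both fractions. It was at 29.3 FPKM in knockdown-labelled and 12.8 FPKM in control input, and at 50.2 FPKM in knockdown-labelled and 15.0 FPKM in control polyribosome RNA. The kinase MVK, the decarboxylase MVD and the farnesyl diphosphate synthase FDPS lay between -0.30 and 0.22 in both fractions. FDPS, at 124 FPKM in knockdown-labelled and 111 FPKM in control input, is uncertain because of its processed pseudogenes. The isomerase IDI1 was at 18.1 FPKM in knockdown-labelled and 13.0 FPKM in control input. On polyribosomes it was at 2.71 FPKM in knockdown-labelled and 13.2 FPKM in control cells, a difference of -1.94.

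The 3 enzymes that turn farnesyl diphosphate into lanosterol were all higher in knockdown-labelled input. FDFT1, the squalene synthase, differed by 0.65, at 119 FPKM in knockdown-labelled and 75.3 FPKM in control input. SQLE, the squalene epoxidase and a rate-limiting enzyme of the branch, differed by 1.19, at 21.6 FPKM in knockdown-labelled and 8.89 FPKM in control input. LSS, the lanosterol synthase, differed by 1.14, at 23.1 FPKM in knockdown-labelled and 9.92 FPKM in control input. On polyribosomes the 3 parted. LSS was at 30.3 FPKM in knockdown-labelled and 11.5 FPKM in control cells, SQLE at 5.91 FPKM in knockdown-labelled and 8.34 FPKM in control cells, and FDFT1 at 106 FPKM in knockdown-labelled and 91.7 FPKM in control cells.

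After lanosterol the members went in different directions. DHCR7, the reductase that makes cholesterol in the last step, was at 142 FPKM in knockdown-labelled and 0.07 FPKM in control input. Its polyribosome RNA was at 196 FPKM in knockdown-labelled and 0.13 FPKM in control cells. The log2 differences were 7.06 in input and 7.44 on polyribosomes, and they too depend on the added constant, with 9.71 and 9.73 at a constant of 0.1 and 4.86 and 5.29 at 5. A threshold set around the values of DHCR7 and ACAT2, 20 FPKM or more in each knockdown-labelled library and less than 1 FPKM in each control library, was met by these 2 members and by 0.664% of all genes, and nothing is read from that share. Both genes passed the mean of 5 FPKM through the knockdown-labelled libraries alone. TM7SF2, a sterol reductase, was the only one of the 25 at least 2-fold lower in input, at 10.5 FPKM in knockdown-labelled and 38.0 FPKM in control cells. On polyribosomes it was at 21.6 FPKM in knockdown-labelled and 35.3 FPKM in control cells. TM7SF2 overlaps VPS51 on the same strand in the annotation used here, so its counts are uncertain. The same holds for CYP51A1, which overlaps AC000120.2 and AC000120.3, and for FADS2, which overlaps FEN1.
CYP51A1, the lanosterol demethylase, was nearly level in input, at 36.6 FPKM in knockdown-labelled and 31.2 FPKM in control cells. Its polyribosome RNA was at 6.35 FPKM in knockdown-labelled and 33.3 FPKM in control cells, the lowest difference of the 25 members, -2.22. MSMO1, a sterol methyl oxidase, was at 24.5 FPKM in knockdown-labelled and 14.1 FPKM in control input, yet at 6.39 FPKM in knockdown-labelled and 15.0 FPKM in control polyribosome RNA. NSDHL, a sterol dehydrogenase, was higher in both fractions without reaching 2-fold, by 0.88 in input and 0.49 on polyribosomes. EBP, a sterol isomerase, was lower by about the same amount in both, with differences of -0.67 and -0.66. HSD17B7, a ketosteroid reductase with a near-identical pseudogene and therefore uncertain, differed by -0.25 and -0.92.

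Among the regulators, SREBF1 stood apart from SREBF2. SREBF1, whose product drives mainly fatty acid genes, was at 133 FPKM in knockdown-labelled and 34.7 FPKM in control input. On polyribosomes it was at 190 FPKM in knockdown-labelled and 33.0 FPKM in control cells, so the differences were 1.91 and 2.49. SREBF2, whose product drives mainly sterol genes, was at 24.0 FPKM in knockdown-labelled and 22.7 FPKM in control input. Its polyribosome RNA was at 36.4 FPKM in knockdown-labelled and 18.6 FPKM in control cells. INSIG1 was at 14.4 FPKM in knockdown-labelled and 14.9 FPKM in control input, a difference of -0.04. On polyribosomes it was at 7.38 FPKM in knockdown-labelled and 14.8 FPKM in control cells. SREBF1 overlaps RAI1 on the opposite strand. STARD4, which carries sterols between membranes, was low in all libraries, at 0.66 FPKM in knockdown-labelled and 3.46 FPKM in control input. On polyribosomes it was at 0.33 FPKM in knockdown-labelled and 2.45 FPKM in control cells.

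In the fatty acid branch, SCD was the member furthest up in input. SCD, the desaturase that puts the first double bond into saturated chains, was at 204 FPKM in knockdown-labelled and 88.8 FPKM in control input, a difference of 1.19. Its polyribosome RNA was at 83.5 FPKM in knockdown-labelled and 95.4 FPKM in control cells, a difference of -0.19. FASN, the fatty acid synthase, lay within 2-fold, at 60.0 FPKM in knockdown-labelled and 51.8 FPKM in control input and at 81.6 FPKM in knockdown-labelled and 56.9 FPKM in control polyribosome RNA. The 2 enzymes that feed it were lower on polyribosomes. ACLY, which releases acetyl-CoA from citrate, was at 25.3 FPKM in knockdown-labelled and 52.9 FPKM in control polyribosome RNA, while its input was at 43.9 FPKM in knockdown-labelled and 42.8 FPKM in control cells. ACACA, the carboxylase that makes malonyl-CoA, was at 1.71 FPKM in knockdown-labelled and 11.0 FPKM in control polyribosome RNA, and its input was at 5.43 FPKM in knockdown-labelled and 9.24 FPKM in control cells.
ELOVL6, which lengthens palmitate, was at 3.97 FPKM in knockdown-labelled and 7.31 FPKM in control input, and on polyribosomes at 0.47 FPKM in knockdown-labelled and 3.86 FPKM in control cells. The desaturases FADS1 and FADS2 of polyunsaturated fatty acids are neighbours on chromosome 11 and overlap on opposite strands in the annotation. FADS1 was higher in input by 0.76 and nearly level on polyribosomes, at -0.03. FADS2 showed the other order, with 0.41 in input and 1.19 on polyribosomes.

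Counted over the 25 members, input RNA was at least 2-fold higher in knockdown-labelled cells for 7 and 2-fold or more lower for 1. The background over the 7379 counted genes was 13.2% for the higher and 14.4% for the lower direction. The median of the 25 was 0.41 and that of all genes 0.01. Without DHCR7 and ACAT2 the members' median was 0.23. The 7 were ACAT2, PMVK, SQLE, LSS, DHCR7, SREBF1 and SCD. With a constant of 5 in place of 1, as the authors used for their ratios, 4 members were at least 2-fold higher, with 9.47% of all genes. Polyribosome RNA was at least 2-fold higher for 6 members, with 16.7% of all genes, and at least 2-fold lower for 5, with 32.9% of all genes. The median of the 25 was 0.02 and that of all genes -0.28. Centred on that median of all genes, 7 members were at least 2-fold higher, with 22.8% of all genes, and 3 lower, with 27.0%.
In both fractions, 5 members were at least 2-fold higher, namely ACAT2, PMVK, LSS, DHCR7 and SREBF1, and 7.22% of all genes were. No member of the 25 was at least 2-fold lower in both, and 8.48% of all genes were. STARD4, under the mean of 5 FPKM and so not counted, was at -1.43 in input and -1.38 on polyribosomes. With the knockdown-labelled fractions exchanged, 6 members were at least 2-fold higher in input and 4 lower, with 15.9% and 31.8% of all genes. On polyribosomes 5 were then higher and 1 lower, with 12.7% and 14% of all genes. ACAT2, DHCR7 and SREBF1 were at least 2-fold higher in both fractions under either order. No share of all genes was computed for that, so nothing is read from it. PMVK and LSS fell just short, at 0.92 and 0.95 in polyribosome RNA under the exchanged order. DHCR7 and ACAT2 passed the filter through the knockdown-labelled libraries alone, with control values near 0. Nothing is therefore read from their staying high or from their place in these counts. The others of the 5 were PMVK, LSS and SREBF1. Under the exchanged order, input differences turned direction and passed 2-fold lower for CYP51A1 at -2.13, IDI1 at -1.91 and MSMO1 at -1.03. SCD, SQLE and HMGCS1, at least 2-fold higher under the header, turned to -0.09, -0.52 and -0.49. On polyribosomes SCD turned to 1.09, SQLE to 1.28 and HMGCS1 to 1.75.

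**Figure D2:**
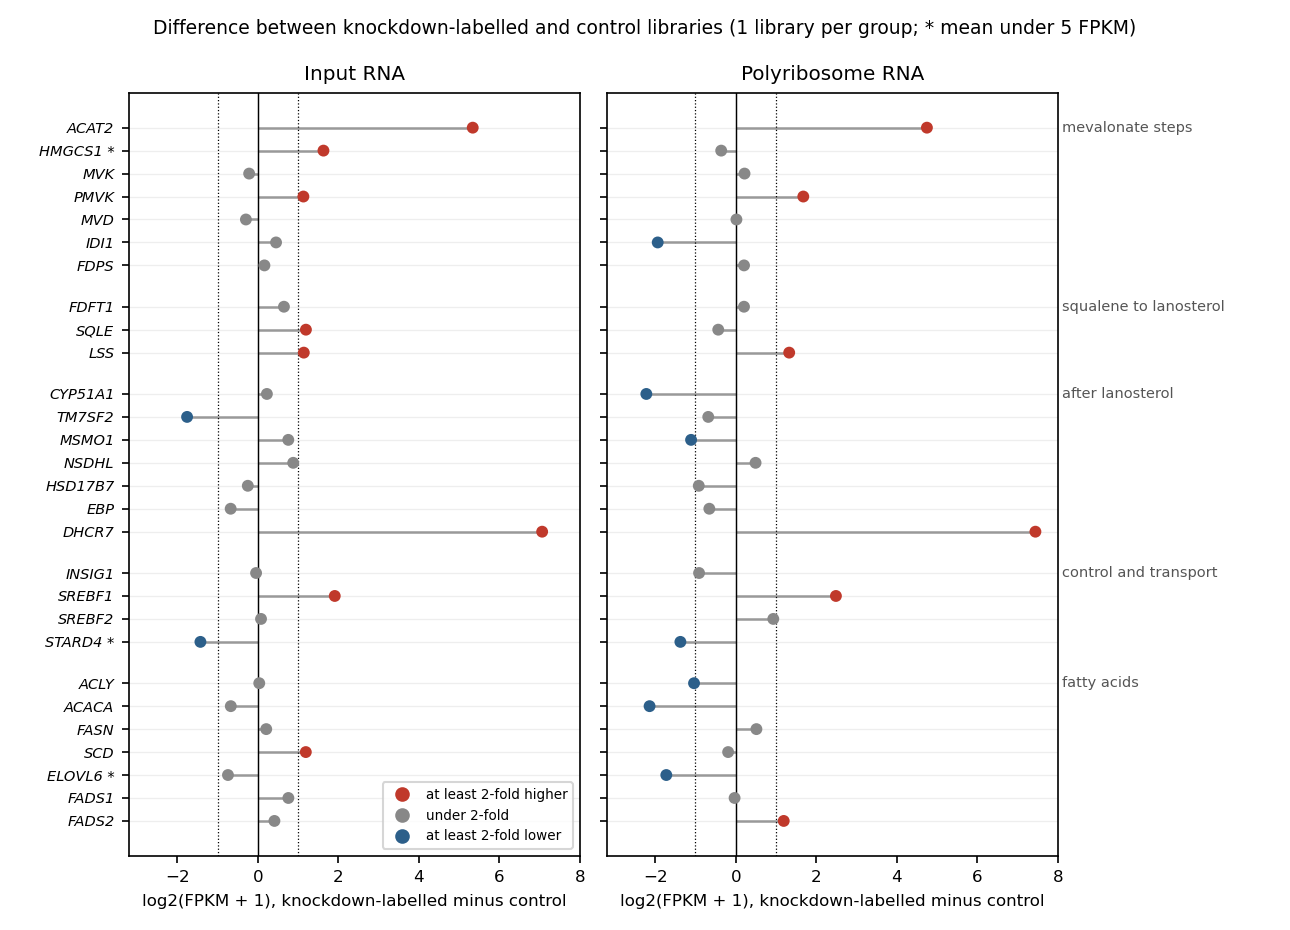
Difference of log2(FPKM + 1), knockdown-labelled minus control, for each member in input RNA (left panel) and polyribosome RNA (right panel), with dotted lines at 2-fold. DHCR7 reaches 7.06 and 7.44 and ACAT2 5.34 and 4.75, sizes that depend on the added constant, and CYP51A1 is near 0 in input and at -2.22 on polyribosomes.

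Translation efficiency, the comparison for which the series was designed, is the log2 of polyribosome over input FPKM with 1 added to each. It compares shares of 2 libraries and not amounts. In control cells the 25 members lay between -0.27 for SREBF2 and 0.38 for MVD, and 0 members were 2-fold away from even loading. The background over all genes was 0% for higher and 0.759% for lower. The median of the members was 0.10 and that of all genes 0.03. In knockdown-labelled cells the members spread from -2.37 for IDI1 to 0.97 for TM7SF2. At least 2-fold lower were 6 of 25, with 28.8% of all genes, and at least 2-fold higher were 0, with 8.62% of all genes.
The 6 were IDI1, CYP51A1, MSMO1, SQLE, SCD and ACACA, which belong to 4 different stretches of the 2 pathways. Polyribosome FPKM of IDI1 was 0.150 of its input FPKM in knockdown-labelled cells, against 1.02 in control cells. For CYP51A1 the share was 0.174 in knockdown-labelled and 1.07 in control cells. At the other end, TM7SF2 was at 2.05 in knockdown-labelled and 0.929 in control cells. In the authors' deposited table, whose ratio has 5 added to both values, CYP51A1 was at 0.273 in knockdown and 1.06 in control cells, and TM7SF2 at 1.71 in knockdown and 0.937 in control cells. HMGCS1 and ELOVL6, under the mean of 5 FPKM, were at -2.12 and -1.76 in knockdown-labelled cells and at -0.12 and -0.77 in control cells.
As a difference of efficiencies, knockdown-labelled minus control, 7 of 25 members were at least 2-fold lower, the 6 above and ACLY at -1.07, with 30.1% of all genes. One member, TM7SF2 at 1.07, was at least 2-fold higher, with 12% of all genes. The median was -0.39 for the members and -0.12 for all genes, and the share of members at least 2-fold lower was 28%, close to the 30.1% of all genes. With the fractions exchanged, the direction of efficiency in knockdown-labelled cells turns by construction, and 6 members were then at least 2-fold higher and 0 lower, with 28.8% and 8.62% of all genes. The difference was then 2.34 for IDI1, 2.26 for CYP51A1 and -0.87 for TM7SF2.

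**Figure D3:**
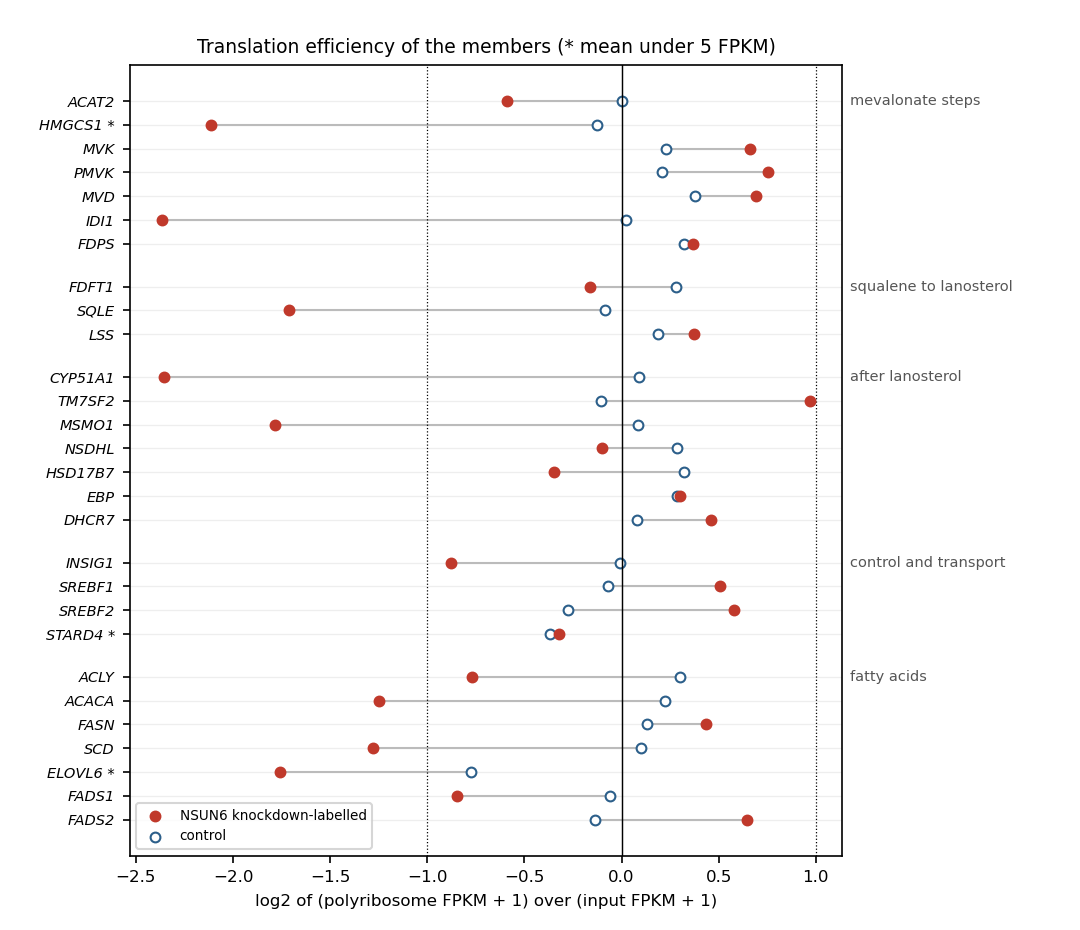
Log2 of polyribosome over input RNA for each member, filled points for knockdown-labelled and open points for control cells, with dotted lines at 2-fold. Control points of the members with a mean of at least 5 FPKM lie between -0.27 and 0.38, and knockdown-labelled points run from -2.37 for IDI1 to 0.97 for TM7SF2.

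Under the header's order of fractions, members with a GC-poor transcript had the lower efficiencies in the knockdown-labelled libraries. Of the 8 members under 50% GC, 8 had an efficiency below 0 there, with a median of -1.50, and 91.2% of all genes in that class were below 0. Of the 17 members at or above 50% GC, 5 were below 0, with a median of 0.44, and 22.8% of all genes in that class were below 0. In control cells 2 of the 8 were below 0, with 47.2% of all genes of that class, and 5 of the 17, with 43.8% of all genes of theirs. The control medians of the 2 classes of members were 0.09 and 0.19.
Across the 25 members Spearman's rho between efficiency and transcript GC content was 0.93 in knockdown-labelled and 0.05 in control cells. Across 7346 genes rho was 0.82 in knockdown-labelled and 0.02 in control cells. With the knockdown-labelled fractions exchanged, the direction turned by construction, and rho over the 25 members was -0.93 in knockdown-labelled cells. These are descriptions across genes that share their libraries, and genes are not replicates. With GC content of the coding part alone rho was 0.82 over the members in knockdown-labelled cells, and with transcript length it was -0.24. INSIG1 had 58.0% GC in its coding part yet fell in the class under 50% over the whole transcript, and its efficiency was -0.88 in knockdown-labelled and -0.01 in control cells.
When a trend on GC content and length across all genes was removed, 1 of the 25 members, SQLE at -1.02, was still at least 2-fold lower in knockdown-labelled efficiency, with 14.6% of all genes. The median of all genes was then -0.36. CYP51A1 was then at -0.93, IDI1 at -0.75 and MSMO1 at 0.09. In the efficiency difference, knockdown-labelled minus control, 5 of the 25 were then at least 2-fold lower, with 17.7% of all genes. They were ACACA at -1.20, FASN at -1.15, MVD at -1.08, CYP51A1 at -1.06 and ACLY at -1.01. The median of that difference was then -0.41 for the members and -0.40 for all genes. Input differences hardly depended on this removal, with 7 members at least 2-fold higher and 1 lower as before. The shares of all genes were 12.8% and 14.3%. On polyribosomes the count at least 2-fold higher went to 3, with 10.4% of all genes.

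**Figure D4:**
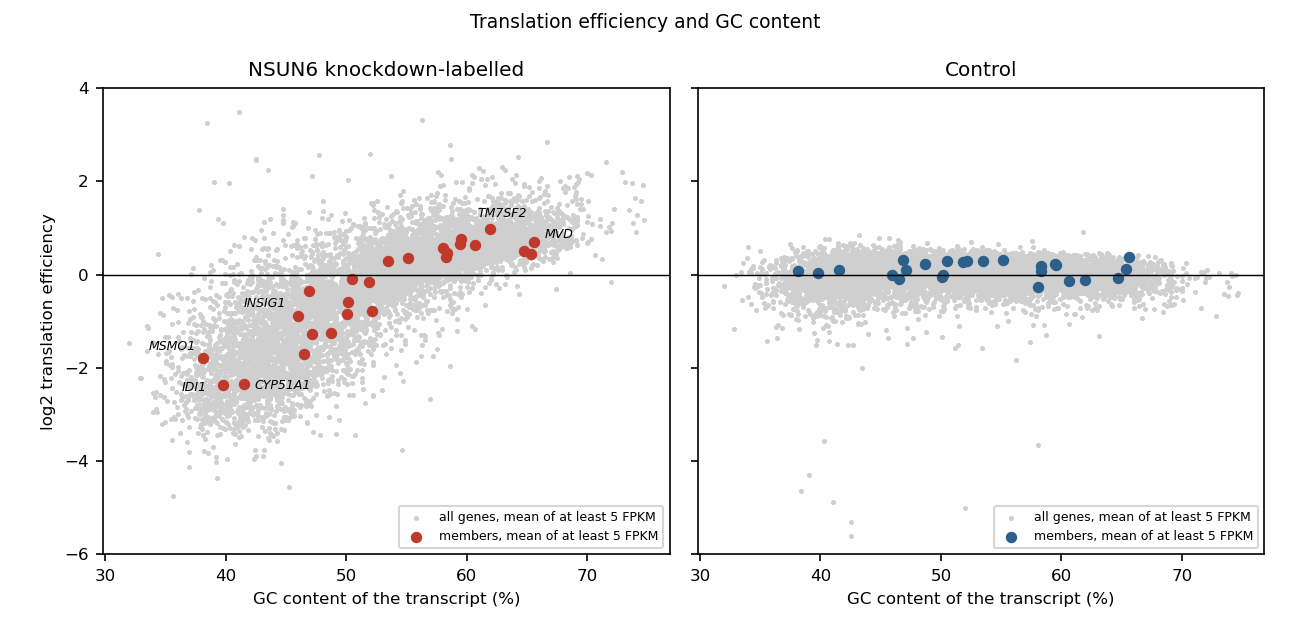
Log2 translation efficiency against GC content of the transcript in percent, for knockdown-labelled cells (left panel) and control cells (right panel), with members in colour and all other counted genes in grey. Over the 25 members rho is 0.93 in knockdown-labelled and 0.05 in control cells. With the knockdown-labelled fractions exchanged, 0.93 turns to -0.93.

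Other genes of the pathways were described from lists that hold none of the 28, under the header's order of fractions only. Of 6 other sterol synthesis genes past the mean of 5 FPKM, 1 was at least 2-fold higher and 1 lower in knockdown-labelled input. The shares of all genes were 13.2% and 14.4%. LBR, a sterol reductase of the inner nuclear membrane related to TM7SF2, was at 27.7 FPKM in knockdown-labelled and 5.39 FPKM in control input. ACAT1, the mitochondrial thiolase, was at 11.8 FPKM in knockdown-labelled and 44.0 FPKM in control input, the opposite direction to the cytosolic ACAT2. Of 9 genes for SREBP processing and control, 2 were at least 2-fold higher in input and 0 lower, beside the same shares. The 2 were RNF139 and ERLIN2, with differences of 1.14 and 1.10. SCAP, the escort of the SREBP precursors, was at 20.2 FPKM in knockdown-labelled and 27.1 FPKM in control input, a difference of -0.40. Of 9 genes for sterol uptake, transport, storage and efflux, 5 were at least 2-fold higher in input and 0 lower. Beside the same 13.2% and 14.4% of all genes, the median of these 9 was 1.16. Without the filter, the median over all 14 genes of this list was 0.76. TMEM97, a sterol-regulated membrane protein, was the highest of them, at 45.6 FPKM in knockdown-labelled and 12.4 FPKM in control input.
In efficiency, knockdown-labelled minus control, these 3 lists had 3 of 6, 3 of 9 and 4 of 9 genes at least 2-fold lower, beside 30.1% of all genes. Among them were LBR at -2.31, the ubiquitin pathway factor FAF2 at -2.23 and the oxysterol-binding protein OSBP at -1.94. NR1H2, an oxysterol-activated nuclear receptor, was at 1.38.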

How the data were processed

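Poly(A) RNA of 4 libraries was sequenced with a stranded kit, per the labels' protocols. The authors deposited FPKM per gene symbol and a translation efficiency ratio, which the values show to be (polyribosome FPKM + 5) over (input FPKM + 5), with a largest gap of 5e-10. TopHat and the builds hg19 and GRCh37 are named per the submitters' processing notes; no source used here names the counting tool, its strand setting or the annotation. Columns were assigned by header, and groups by sample title.

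Of 17064 rows, 26 carry a number for a name; they were kept in the background. Differences of log2(FPKM + 1) were computed with pandas 2.3.3, for 7379 genes averaging 5 FPKM or more, and counted at 2-fold. GC content and length came from the transcript with the longest coding part in GENCODE 29, matched for 99.6% of these genes, and a quadratic trend on both was fitted. The scripts were tested on simulated data. Members and gene lists were chosen with earlier results of these data known. Named genes are the members, NSUN6 and, from each other list, some of the 2 highest and 2 lowest by input or efficiency difference; METTL1 and markers were named after their values were seen. Alternatives were 2 other constants, 2 other filters, centring, exchanged fractions and removal of GC content and length. Depth is unknown, so no interval or floor was computed.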

Additional observations from a re-analysis of the deposited data

Results flagged for a closer look

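MSMO1 was flagged because the 2 fractions moved in opposite directions by at least 1.5-fold each. Its input RNA was higher in knockdown-labelled than in control cells by 0.76, and its polyribosome RNA differed by -1.11, so the efficiency difference was -1.87. With 1 library per group the difference was not tested, and with the fractions exchanged it was 1.70. With GC content and length removed it was -0.08, and the polyribosome difference was 0.48.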

How the results depend on the processing

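No paired analysis was possible because each group has 1 library and the result comes from no test. Counts of the 25 members at least 2-fold apart moved by over 1.5 times as follows, and the cause was not tested. With the fractions exchanged, members lower in input went to 4 and members lower on polyribosomes to 1, beside shares of all genes given above. Members higher and lower in knockdown-labelled efficiency then went to 6 and 0, with 28.8% and 8.62% of all genes. Members higher and lower in the efficiency difference went to 6 and 1, with 27.8% and 6.29% of all genes. With GC content and length removed, members higher on polyribosomes went to 3, with 10.4% of all genes. Members lower in knockdown-labelled efficiency went to 1, with 14.6% of all genes. Members higher in the efficiency difference went to 0, with 5.45% of all genes. Centred on the median of all genes, members lower on polyribosomes went to 3, with 27.0% of all genes. With a constant of 5, members higher in input went to 4, members lower on polyribosomes to 3 and members higher in the efficiency difference to 0. The shares of all genes were 9.47%, 24.2% and 8.65%. With a constant of 0.1, members higher in knockdown-labelled efficiency went to 1, TM7SF2, with 10.0% of all genes. At a mean of at least 1 FPKM or with no filter, members lower in input went to 2, with 14.8% and 9.84% of all genes. Without DHCR7 and ACAT2, an alternative chosen after seeing the data, 5 members were higher in input and 4 on polyribosomes. These 2 counts did not move by over 1.5 times.

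Exchanging the fractions turned the sign of 32 member values that were at least 2-fold apart before or after. Knockdown-labelled efficiency became 1.25 for ACACA, 2.35 for CYP51A1, 1.76 for ELOVL6, 2.12 for HMGCS1, 2.37 for IDI1, 1.78 for MSMO1, 1.28 for SCD and 1.71 for SQLE. The efficiency difference became 1.02 for ACACA, 0.47 for ACLY, 2.26 for CYP51A1, 2.24 for HMGCS1, 2.34 for IDI1, 1.70 for MSMO1, 1.18 for SCD, 1.79 for SQLE, 2.53 for ELOVL6, -1.07 for MVD and -0.87 for TM7SF2. On polyribosomes the difference became 0.13 for CYP51A1, 0.032 for ELOVL6, 0.43 for IDI1, 0.67 for MSMO1, 1.75 for HMGCS1, 1.28 for SQLE and 1.09 for SCD, and in input -2.13 for CYP51A1, -1.91 for IDI1, -1.03 for MSMO1, -0.49 for HMGCS1, -0.087 for SCD and -0.52 for SQLE. Removal of GC content and length turned 9 such values, to 0.48 for MSMO1, 0.87 for STARD4, 1.05 for HMGCS1 and -1.26 for MVD on polyribosomes, 0.086 for MSMO1 and 2.36 for STARD4 in knockdown-labelled efficiency, and -0.0030 for TM7SF2, -1.15 for FASN and -1.08 for MVD in the efficiency difference. Values under 2-fold both before and after are not counted here.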

Other observations

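Among other genes of fatty acid synthesis and activation, input RNA was 2-fold or more higher in knockdown-labelled cells for 3 of 15 and lower for 4, beside 13.2% and 14.4% of all genes, with a median of -0.02. FADS3, a relative of FADS1 and FADS2, was at 6.80 FPKM in knockdown-labelled and 54.8 FPKM in control input, a difference of -2.84. HACD3, a dehydratase of chain elongation, was at 68.5 FPKM in knockdown-labelled and 23.0 FPKM in control input. Under the header's order of fractions, the reductase HSD17B12 of the same cycle was among the lowest in efficiency, at -2.47 knockdown-labelled minus control.

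For fatty acid oxidation, input RNA was 2-fold or more higher in knockdown-labelled cells for 2 of 8 genes and lower for 0, beside the same shares of all genes. ECHS1, a mitochondrial hydratase, was at 265 FPKM in knockdown-labelled and 114 FPKM in control input. Under the header's order of fractions, the efficiency difference was at least 2-fold lower for 2 of the 8, with 30.1% of all genes. It was below 0 for all 8, as for 4015 of 7379 genes. It was lowest for ACADM, the medium-chain dehydrogenase, at -2.24.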
